A study of Mus musculus with 4 samples.

Results

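The MHC class II presentation genes examined here were *H2-Aa*, *H2-Ab1*, *H2-Eb1*, *H2-DMa*, *H2-DMb1*, *Cd74* and *Ciita*. They were taken by gene symbol from the table of log2 expression values, and all 7 were among its 45802 symbols. A value was listed in all 4 libraries for 5 of them and in fewer libraries for 2. The libraries were made from periosteal cells of the femurs and tibias of male Pdgfrα-mTmG mice 9 to 10 weeks old. In these animals, CreER is driven by the *Pdgfra* promoter and switches a cell from membrane tdTomato to membrane GFP after tamoxifen. Both populations came from tamoxifen-treated animals (5 daily doses of 150 mg/kg, with tissue taken 14 days after the last), so that the reporter records promoter activity at that time and not the transcript after culture. Cells were expanded for 1 passage in medium with 15% FBS and 10 ng/mL bFGF and were then sorted as CD31-, CD45- and Ter119-. PDGFRα reporter+ cells were GFP+, PDGFRα reporter- cells were tdTomato+, and each population was represented by 2 libraries. According to the labels, 3 to 6 mice were pooled for a cell population, whereas the methods give a different range. The libraries of each population carry the numbers 2 and 3 in the table. The sample titles use other replicate numbers, and neither source says whether a shared number marks a shared culture, so that p-values measure the spread between these libraries only.

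MHC class II molecules display peptides from endocytosed proteins to CD4+ T cells. Their α and β chains assemble with the invariant chain, encoded by *Cd74*, which blocks the peptide groove and directs the complex to endosomes. There, cathepsins trim the invariant chain to a small fragment, and the H2-DM heterodimer (*H2-DMa* and *H2-DMb1*) exchanges this fragment for antigenic peptide. Transcription of these genes depends on CIITA, a coactivator that does not bind DNA itself and is recruited by RFX, CREB and NF-Y proteins on the X and Y boxes of their promoters. CIITA is constitutive in professional antigen-presenting cells such as dendritic cells and B cells. In fibroblasts and other stromal cells it is low unless interferon gamma is present.

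The promoter elements through which CIITA acts are shown because genes with very different levels in these cells shared them. RefSeq promoter windows on GRCm38.p6, from 250 bases before to 50 bases after the annotated start, were matched by symbol for 4 of the 7 genes. *H2-Ab1*, *Cd74* and *Ciita* were not matched. Capitals mark GNAACT, a core of the X box, and TGATTGG, the Y box, which on its opposite strand holds CCAAT. The *H2-Aa* stretch lies at chr17:34287857-34287914 on the minus strand, and the *H2-Eb1* stretch at chr17:34305766-34305822 on the plus strand. Both are upstream of the first exon in GENCODE M21.
H2-Aa: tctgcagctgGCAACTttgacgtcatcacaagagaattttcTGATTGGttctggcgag
H2-Eb1: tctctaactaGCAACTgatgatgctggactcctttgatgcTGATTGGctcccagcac
The motifs are separated by 25 bases in *H2-Aa* and 24 bases in *H2-Eb1*, and the pair begins 81 and 91 bases before the annotated start. *H2-DMb1* also had the pair, 94 bases before its RefSeq start, with 25 bases between the motifs. Since GENCODE M21 places a first exon over this position, only its X box is shown, at chr17:34153091-34153114 on the plus strand.
H2-DMb1: tacctaGTAACTgatgatgctagg
Over these 24 bases, *H2-DMb1* was identical to *H2-Eb1* at 20 positions and to *H2-Aa* at 9 positions. Searched on both strands with the motif starts 15 to 40 bases apart, the pair occurred in 0.21% of the 32851 promoter windows, GNAACT alone in 42.8% and TGATTGG alone in 7.82%. The 2 *H2-DMa* windows held no such pair. Among the other genes examined for this pathway, *H2-Eb2* had the pair, and none of the 20 class I pathway genes with a window did. The motifs are a description of sequence, were written after the windows had been seen, and do not show binding.

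The deposited values had equal quartiles in all 4 libraries, at −1.47, 1.48 and 3.00, the pattern that quantile normalization leaves. Sequencing depth and the unit under the logarithm are unknown, so that no counting error can be given. To set genes beside each other, each value was also expressed as the percentage of protein-coding genes of like exon length (within a factor of 1.41 in GENCODE M21) that had a lower value in the same library. The 10 periosteal stromal genes all had a value in each library and a median percentage of 95.5%, with a range from 44.7% to 99.9%. *Pdgfra* itself had log2 values of 7.78 and 7.62 in PDGFRα reporter+ libraries 2 and 3 and of 7.87 and 7.44 in PDGFRα reporter- libraries 2 and 3, so that the populations overlapped.

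The classical class II chains had very low values in both populations. *H2-Aa*, the α chain of I-A (chromosome 17, 34282744 to 34287823), had no signal in either PDGFRα reporter+ library or in PDGFRα reporter- library 2. Its only log2 value was −5.53, in PDGFRα reporter- library 3, where 7.09% of coding genes of like length were lower. No fold change was computed for a gene listed in 1 library. *H2-Ab1*, the β chain that pairs with it (chromosome 17, 34257689 to 34269419), had log2 values of −3.25 and −4.11 in PDGFRα reporter+ libraries 2 and 3 and of −2.19 and −5.70 in PDGFRα reporter- libraries 2 and 3. The PDGFRα reporter- libraries enclosed the PDGFRα reporter+ libraries, and the means were −3.68 ± 0.61 and −3.94 ± 2.48 (SD, n = 2 each). The log2 fold change of *H2-Ab1* was 0.26 (SE 1.32, limma adjusted p = 1), well within the spread between libraries. Between 7.37% and 24.9% of coding genes of like length were lower, depending on the library. *H2-Eb1*, the β chain of I-E (chromosome 17, 34305867 to 34316674), had log2 values of −3.31 and −2.85 in PDGFRα reporter+ and of −2.94 and −2.19 in PDGFRα reporter- libraries. The populations overlapped, with means of −3.08 ± 0.32 and −2.56 ± 0.53 (SD, n = 2 each). Its log2 fold change was −0.51 (SE 0.56, limma adjusted p = 1). On average, 23.6% of coding genes of like length were lower. An annotated antisense gene, *Gm20513*, overlaps *H2-Eb1* and is not among the symbols of the table.

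The other chains of the class II region were also near or below detection. Of the 8 symbols listed for them, 6 were in the table, and 5 of these had no signal in any library, including *H2-Oa* and *H2-Ob*, which encode the DM inhibitor H2-O, and *H2-Ea-ps*, the pseudogene of the I-E α chain. The remaining one, *H2-DMb2*, had log2 values of −5.16 and −5.08 in PDGFRα reporter+ and of −4.01 and −5.05 in PDGFRα reporter- libraries. Both PDGFRα reporter+ libraries lay below both PDGFRα reporter- libraries, by as little as 0.03 in the libraries numbered 3 (log2 fold change −0.59, SE 0.70, limma adjusted p = 1).

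*Cd74*, the invariant chain (chromosome 18, 60803848 to 60812652), was also low, with values below those of most coding genes in every library. Its log2 values were −3.72 and −2.77 in PDGFRα reporter+ libraries 2 and 3 and −3.85 and −4.30 in PDGFRα reporter- libraries 2 and 3. Among the 5 genes tested, *Cd74* alone had populations that did not overlap, with both PDGFRα reporter+ libraries above both PDGFRα reporter- libraries. The means were −3.25 ± 0.67 and −4.08 ± 0.31 (SD, n = 2 each), a log2 fold change of 0.83 (SE 0.63) or 1.78-fold, with a limma adjusted p of 1. Most of this difference came from the libraries numbered 3, where *Cd74* was higher in PDGFRα reporter+ cells by 1.53, compared with 0.13 in the libraries numbered 2. Without PDGFRα reporter+ library 3, the log2 fold change was 0.35. Of coding genes of like length, 20.1% and 25.6% were lower in the PDGFRα reporter+ libraries and 19.7% and 16.5% in the PDGFRα reporter- libraries. In bulk samples, fewer cells expressing a gene and less RNA per cell cannot be told apart.

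*Ciita* (chromosome 16, 10480059 to 10528418) was at the bottom of the range. Its log2 values were −8.32 and −8.40 in PDGFRα reporter+ libraries 2 and 3. In PDGFRα reporter- cells it had no signal in library 2 and a value of −6.77 in library 3, the highest of its values and the library that also held the only *H2-Aa* value. In that library *H2-Eb1* and *H2-DMa* also had their highest values, whereas *H2-Ab1* and *Cd74* had their lowest. At most 3.10% of coding genes of like length were lower than *Ciita* in any library with a value. The exon length of *Ciita* was merged over its isoforms, so that this percentage is approximate. *Ciita* was not tested because of the blank. Its overlapping gene on the opposite strand, *Dexi*, had log2 values from 1.21 to 1.60, far above *Ciita* in every library.

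**Figure D1:**
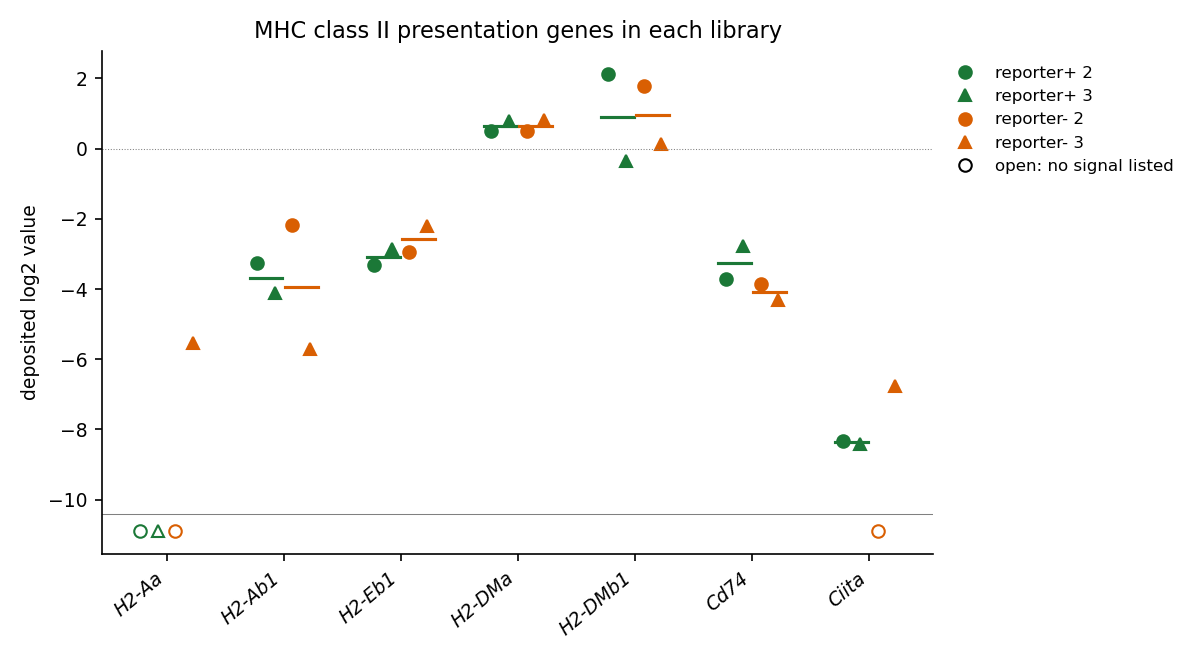
Deposited log2 values (y axis) of the 7 class II presentation genes (x axis) in each library; circles are libraries numbered 2, triangles libraries numbered 3, bars the mean of 2 libraries, and open symbols below the line libraries with no signal. *H2-DMa* and *H2-DMb1* lie between −0.35 and 2.14, whereas every other value lies at or below −2.19.

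The DM genes stood apart from the chains that their product serves. *H2-DMa* (chromosome 17, 34119541 to 34139101) had log2 values of 0.50 and 0.80 in PDGFRα reporter+ libraries 2 and 3 and of 0.50 and 0.81 in PDGFRα reporter- libraries 2 and 3. The values were thus nearly equal between populations within each number. The means were 0.65 ± 0.21 and 0.65 ± 0.22 (SD, n = 2 each), and the log2 fold change was −0.002 (SE 0.28, limma adjusted p = 1). Between 37.6% and 41.1% of coding genes of like length were lower. In GENCODE M21 the span of *H2-DMa* runs into *Brd2* on the opposite strand, which had log2 values from 4.32 to 4.49. Whether strand was used in counting is not stated, and the share of *Brd2* reads in *H2-DMa* was not tested.

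*H2-DMb1* (chromosome 17, 34153072 to 34160230) had log2 values of 2.14 and −0.35 in PDGFRα reporter+ libraries 2 and 3 and of 1.80 and 0.12 in PDGFRα reporter- libraries 2 and 3. It was high in both libraries numbered 2 and lower in both libraries numbered 3, and the populations overlapped. The means were 0.90 ± 1.76 and 0.96 ± 1.18 (SD, n = 2 each), and the log2 fold change was −0.06 (SE 1.03, limma adjusted p = 1). Library 3 was below library 2 by 2.48 on the log2 scale in PDGFRα reporter+ and by 1.67 in PDGFRα reporter- cells. Averaged over both populations, this difference was larger than that of 96.0% of the 14415 genes tested. For *H2-DMa* the corresponding share was 49.3%, with library 3 higher by 0.30 and 0.32, so that the subunits of the DM heterodimer did not vary together. *H2-DMb1* and its paralog *H2-DMb2* lie next to each other, and reads shared between them could have been split by the counting. The 3 genes with the promoter pair thus ranged in level from *H2-Aa*, with no signal in 3 of 4 libraries, to *H2-DMb1*, which on average exceeded 50.7% of coding genes of like length.

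For the comparison of the populations over all genes, limma called 0 of the 14415 genes tested (0%) at an adjusted p under 0.05, beside 131 genes at an unadjusted p under that value. Of the 5 class II genes tested, 0 passed with adjustment and 0 without it. *H2-Aa* and *Ciita* were not in the test. Both PDGFRα reporter+ libraries were above both PDGFRα reporter- libraries for 1 of the 5 genes, compared with 7.59% of all genes tested, and below both for 0 of the 5, compared with 8.1%. With so few members, these counts do not set the class II genes apart from the other genes. The median log2 fold change of the 5 genes was −0.002, beside −0.004 over all genes tested. With 2 libraries in each population, an exact permutation test of a single gene cannot reach a two-sided p below 0.333.

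Within the numbers, the direction of the difference held for *Cd74* and *H2-Eb1* only. *H2-Eb1* was lower in PDGFRα reporter+ cells by 0.37 on the log2 scale in the libraries numbered 2 and by 0.66 in those numbered 3 (differences of −0.37 and −0.66). *H2-Ab1* had differences of −1.06 in number 2 and 1.59 in number 3. *H2-DMb1* had differences of 0.34 and −0.47, and *H2-DMa* had differences of 0.01 and −0.01. For *Ciita* a difference could be formed in number 3 alone and was −1.63. Each of these is a difference between single libraries, with no test.

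**Figure D2:**
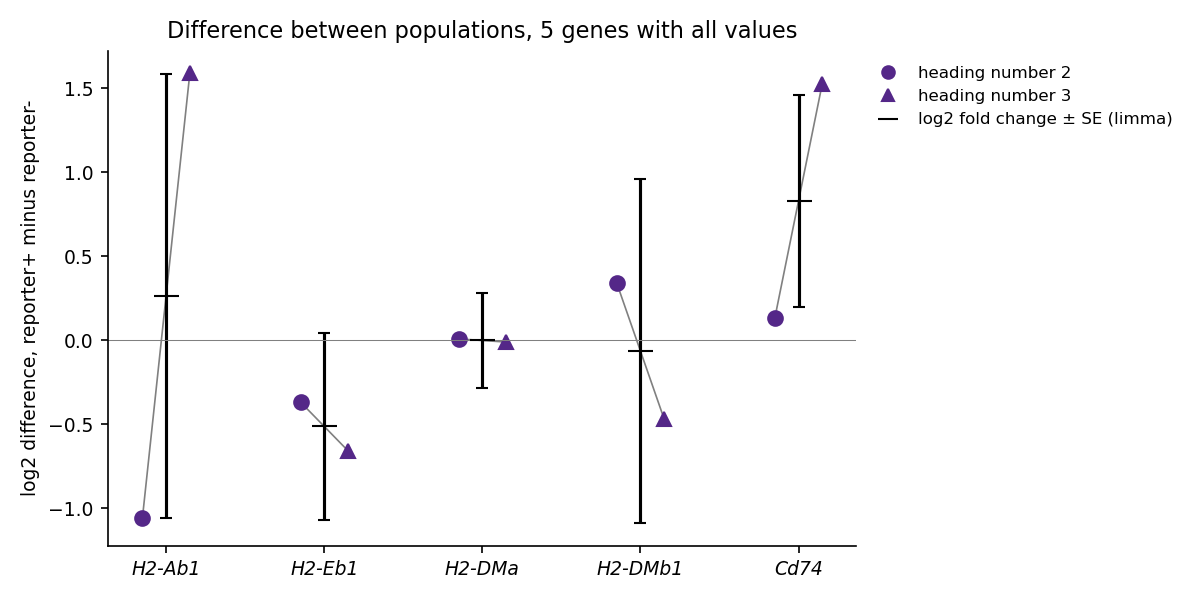
Log2 difference between PDGFRα reporter+ and PDGFRα reporter- cells (y axis) for the 5 class II genes tested, within number 2 (circles) and number 3 (triangles); black bars are the log2 fold change over all libraries with its SE from limma. The bars of *H2-Ab1*, *H2-DMb1*, *H2-DMa* and *H2-Eb1* cross 0, and *Cd74* lies above 0 in both numbers, by 0.13 and 1.53. Whether an SE bar crosses 0 is no test, and the unadjusted limma p of *Cd74* was 0.254.

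The DNA-binding factors that recruit CIITA were present in both populations. All 7 enhanceosome genes (*Rfx5*, *Rfxap*, *Rfxank*, *Nfya*, *Nfyb*, *Nfyc* and *Creb1*) averaged above 0 on the log2 scale, and their median percentage of lower coding genes of like length was 51.0%. *Rfx5*, the large RFX subunit, had log2 values of 1.04 and 1.12 in PDGFRα reporter+ and of 1.16 and 1.17 in PDGFRα reporter- libraries, and *Rfxank* had 1.58 and 1.59 compared with 1.64 and 1.67. These populations did not overlap, but the log2 fold changes of −0.08 (SE 0.22) and −0.07 (SE 0.19) were smaller than their errors. *Rfxap* ranged from 0.42 to 0.67 over the libraries and overlapped. *Nfyc* was listed higher in both PDGFRα reporter+ libraries (2.56 and 2.59 compared with 2.21 and 2.55). By limma, 0 of the 7 genes passed the adjusted threshold, 1 was higher and 2 were lower without overlap, beside 7.59% and 8.1% of all genes, and the median log2 fold change was −0.07.

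Among 14 genes of CIITA induction, *Ifng*, the gene of the inducing cytokine, had no signal in any library, whereas its receptor genes and *Irf1*, an activator of *Ciita*, did. *Ifngr1* had log2 values of 3.67 and 4.70 in PDGFRα reporter+ and of 3.65 and 4.67 in PDGFRα reporter- libraries, *Ifngr2* ranged from 3.49 to 3.95 and *Irf1* from 2.63 to 3.09. The populations overlapped for each of these 3 genes. *Spi1*, the gene of PU.1, which drives *Ciita* in myeloid cells, had log2 values of −0.94 and 0.48 compared with −2.21 and −0.61. Within both numbers the PDGFRα reporter+ value exceeded the other, by 1.27 and 1.09, while the populations overlapped (log2 fold change 1.18, SE 0.79, limma adjusted p = 1). *Jak1* was lower without overlap (log2 fold change −0.15, SE 0.15), and *Prdm1*, a repressor of *Ciita*, was higher without overlap at low values (1.05, SE 0.75). Of the 12 genes tested, 0 passed the adjusted threshold, as over all 14415 genes. Without overlap, 1 was higher and 1 was lower, beside 7.59% and 8.1% of all genes. The median log2 fold change was 0.13, beside −0.004 over all genes.

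The genes of endosomal processing, which encode proteases and a thiol reductase that act on the invariant chain and on antigen, and the cathepsin inhibitor cystatin C (*Cst3*), were abundant. All 10 averaged above 0 on the log2 scale, and the median percentage was 96.9% over the 9 for which a length could be matched. All 10 had a positive log2 fold change, with a median of 0.24, compared with 7076 of the 14415 genes tested and a median of −0.004. Of the 10, 3 were higher in PDGFRα reporter+ cells without overlap, beside 7.59% of all genes. The largest difference was that of *Ctss*, the cathepsin that completes invariant chain cleavage in antigen-presenting cells, with log2 values of 3.31 and 2.92 in PDGFRα reporter+ and of 1.28 and 2.13 in PDGFRα reporter- libraries. Its log2 fold change was 1.41 (SE 0.35, limma adjusted p = 1). *Lgmn* (0.24, SE 0.20) and *Ctsk* (0.39, SE 0.13) were the others, and *Ctsk* is a protease of bone matrix. *Ifi30*, the lysosomal thiol reductase of antigen processing, had values of 3.30 and 2.54 compared with 3.23 and 2.42 and overlapped. The adjusted threshold was passed by 0 of the 10 genes, and 2 (*Ctss* and *Ctsk*) were under 0.05 without adjustment, beside 131 of all 14415 genes. *Ctss* is also a macrophage marker in the lists used here.

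The genes listed for the class I pathway had a higher median level than the class II genes. All 22 class I pathway genes had a value in each library, 18 averaged above 0 on the log2 scale, and the median percentage was 75.9%, compared with 23.6% over the 5 class II genes. The ranges overlapped, from 11.1% to 99.5% and from 16.7% to 50.7%. The sets are also unlike, since the class I list includes chaperone and proteasome genes. The endosomal processing genes, with a median of 96.9%, were listed apart from class II. *B2m*, the class I light chain, averaged 7.25 ± 0.36 on the log2 scale in PDGFRα reporter+ libraries, compared with 7.12 ± 0.02 in PDGFRα reporter- libraries (SD, n = 2 each), with overlap. *H2-K1* was higher in PDGFRα reporter+ cells without overlap, with 3.99 and 3.85 compared with 3.52 and 3.74 (log2 fold change 0.29, SE 0.16, limma adjusted p = 1). *Nlrc5*, the class I counterpart of *Ciita*, had −0.71 and −1.05 compared with −1.15 and −1.12 (0.25, SE 0.37). *H2-Q7* was the remaining gene without overlap (0.77, SE 0.61). Of the 22 genes, 3 were higher and 0 lower without overlap, beside 7.59% and 8.1% of all genes, and none passed the adjusted threshold. The median log2 fold change was 0.12, beside −0.004 over all genes. The class I heavy chains are near-identical paralogs, and their values are uncertain where reads were shared.

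**Figure D3:**
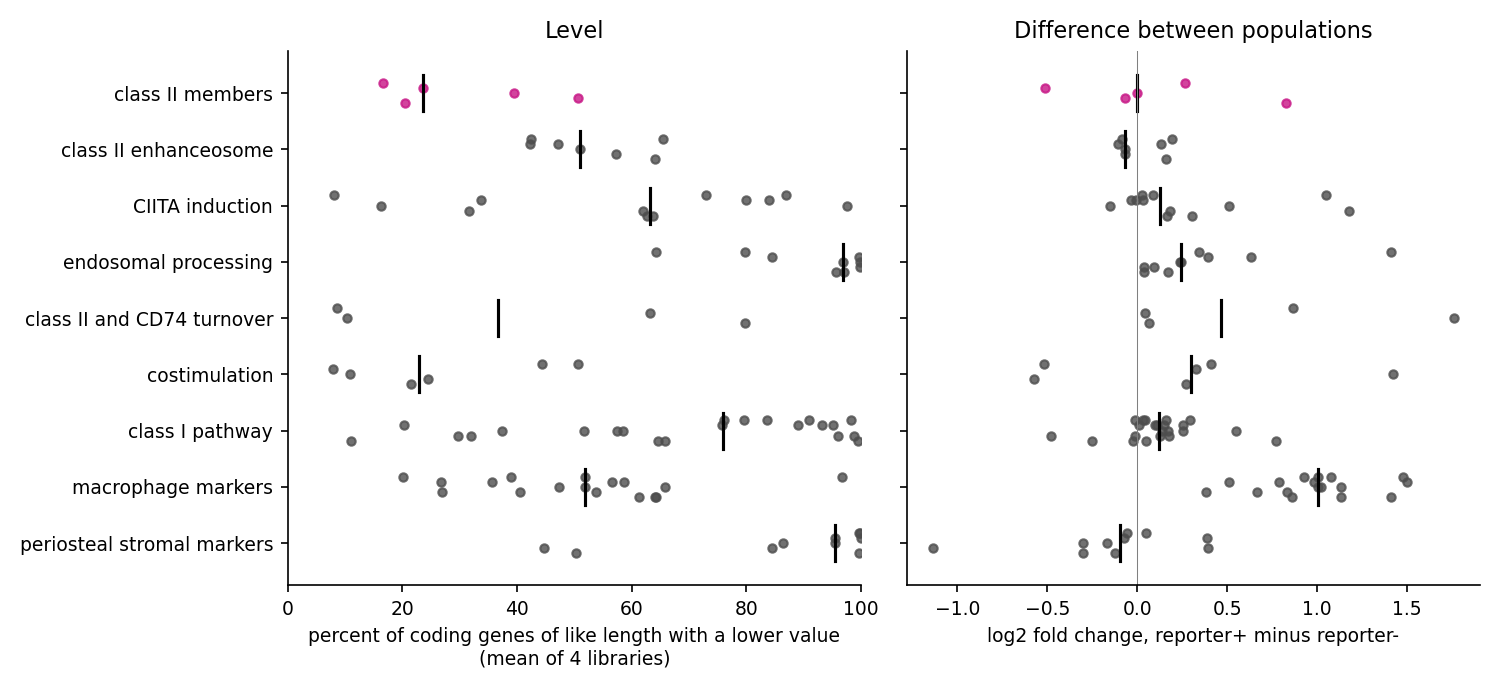
Left, percentage of protein-coding genes of like exon length with a lower value (x axis, mean of 4 libraries); right, log2 fold change between PDGFRα reporter+ and PDGFRα reporter- cells (x axis). Each dot is a gene tested, and black bars are list medians; the class II genes have a median level of 23.6%, and the macrophage markers have a median log2 fold change of 1.00.

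Markers of macrophages, which can express class II genes, were detected although the cells had been sorted as CD45-, and their values were greater in the PDGFRα reporter+ libraries. Of 18 macrophage markers, all were in the table and 17 had a value in all libraries. All 17 had a positive log2 fold change, with a median of 1.00, compared with 7076 of all 14415 genes tested. Of the 17, 10 were higher in PDGFRα reporter+ cells without overlap, beside 7.59% of all genes, while 0 passed the adjusted threshold and 6 were under 0.05 without adjustment (limma), beside 131 of all 14415 genes. On the linear scale, the summed level of the list was 262 and 305 in the PDGFRα reporter+ libraries and 103 and 195 in the PDGFRα reporter- libraries, without overlap. Between 74.6% and 78.1% of these sums was *Lyz2*, and without it they were 61.4 and 69.8 compared with 26.1 and 42.6. *Lyz2*, the macrophage lysozyme, had log2 values of 7.65 and 7.88 compared with 6.27 and 7.25. *Adgre1*, the gene of F4/80, had 1.36 and 2.17 compared with −0.01 and 1.27. *Ptprc*, the gene of CD45, was low, with −1.28 and −0.39 compared with −2.30 and −1.22. Only *Fcgr1* lacked a signal in any library, namely PDGFRα reporter- library 2. *Ctss* is itself in this list, and without it 9 of the 16 markers tested were higher without overlap. *Cd74* is not in the list and had the same direction. Its log2 difference was 0.13 in the libraries numbered 2 and 1.53 in those numbered 3. The sums of the macrophage list, in contrast, differed more between the populations in number 2 than in number 3. The part of macrophages in the difference of *Ctss* or *Cd74* was not tested. For *H2-Eb1* the difference ran the other way, with lower values in PDGFRα reporter+ cells in both numbers. Most endothelial markers had that direction as well. Of 10 listed, 8 were tested, 7 had a negative log2 fold change, 6 were lower in both numbers, and 4 (*Pecam1*, *Cdh5*, *Kdr* and *Emcn*) were lower in PDGFRα reporter+ cells without overlap, beside 8.1% of all genes. The summed linear level was 3.97 and 3.40 compared with 5.18 and 6.56. The most abundant marker, *Egfl7*, made up 37.3% to 58.7% of these sums, and without it they were 1.64 and 1.40 compared with 3.17 and 4.11. The populations of *Egfl7* overlapped (log2 fold change −0.04, SE 0.24). *Erg*, *Tek* and *Vwf* overlapped as well, and *Vwf* had a positive log2 fold change (0.09, SE 0.69). *Pecam1*, the gene of CD31, had log2 values of −4.68 and −4.79 compared with −1.99 and −1.11. The part of endothelial cells in the difference of *H2-Eb1* was not tested.

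**Figure D4:**
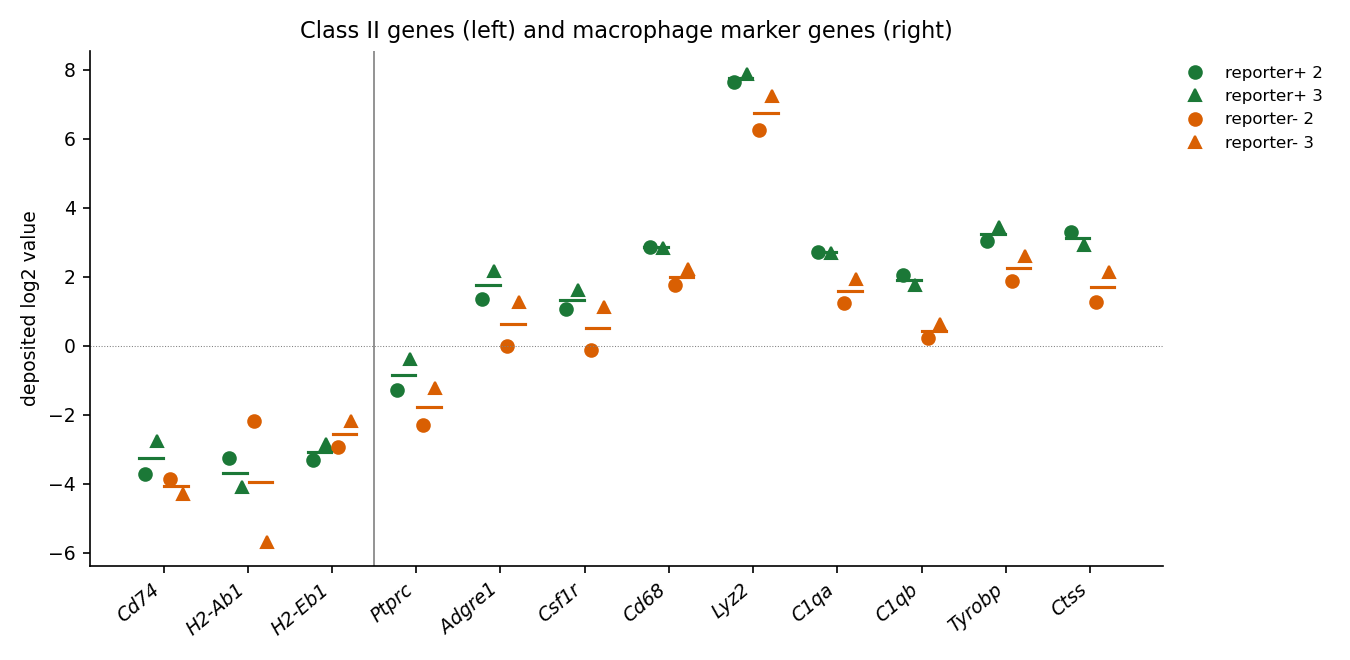
Deposited log2 values (y axis) of *Cd74*, *H2-Ab1* and *H2-Eb1* (left of the line) and of *Ptprc*, 7 other macrophage markers and *Ctss* (right of the line) in each library; symbols as in the plot of class II genes by library. PDGFRα reporter+ libraries lie above PDGFRα reporter- libraries for *Lyz2* (7.65 and 7.88 compared with 6.27 and 7.25), and the class II genes lie between −5.70 and −2.19.

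Markers of other cells that express class II genes constitutively were at low values or blank. Of 10 dendritic cell markers, 3, among them *Flt3*, had no signal in any library, and the summed linear level was 0.33 and 1.05 in PDGFRα reporter+ and 0.369 and 0.845 in PDGFRα reporter- libraries. None of the 8 B cell markers was listed in all 4 libraries, and 3, including *Ms4a1* and *Cd79b*, had none. The sums for B cells were 0.064 and 0.0268 in PDGFRα reporter+ and 0.00567 and 0.0057 in PDGFRα reporter- libraries. Blanks add nothing to these sums. Of the 8 B cell markers, 5 and 6 were blank in the PDGFRα reporter+ libraries and 7 and 6 in the PDGFRα reporter- libraries. The B cell sums thus rest on few genes at low values, and their difference was not tested.

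To find genes with a like pattern, the values of each gene were centered on its mean, and the Euclidean distance to the mean centered profile of the 5 class II genes was taken over 4 libraries. This profile was 0.21 and −0.11 in PDGFRα reporter+ libraries 2 and 3 and 0.40 and −0.51 in PDGFRα reporter- libraries 2 and 3. The nearest genes were *Fam63b* (distance 0.05), *3830403N18Rik* (0.05), *Osbpl3* (0.06), *Klf12* (0.06) and *Zfand6* (0.06). The class II genes themselves were at distances from 0.98 (*H2-DMa*) to 1.88 (*H2-Ab1*), farther than 61.9% to 90.1% of all genes. This distance grows with the size of a gene's differences between libraries as well as with their shape. *H2-Ab1* and *H2-DMb1* had the largest differences, were higher in library 2 than in library 3 of both populations, and weigh most in the mean profile.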

How the data were processed

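Total RNA of sorted periosteal cells (2 PDGFRα reporter+ and 2 PDGFRα reporter- libraries, stranded and paired-end) was sequenced on an Illumina instrument. The submitters' processing notes name bcl2fastq 2.17.1.14, Partek 7.0 and GRCm38.p6. The authors deposited log2 values, 1 per gene symbol and library, with a blank where no signal was detected. Quantile normalization was inferred from the name of the table and from the equal quartiles. The linear unit, aligner, counting, annotation, filters and depth are not given in the sources used here. The column headings show the population only, so that libraries are named by population and heading number.

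The 7 genes and all lists were chosen with earlier results of these data known. Genes without a blank were compared in limma 3.58.1 (R 4.3.3; lmFit, eBayes with variance trend, two-sided, no block), and p-values were adjusted by the Benjamini-Hochberg method over 14415 genes and a threshold of 0.05. The log2 fold change is the PDGFRα reporter+ mean minus the PDGFRα reporter- mean. Differences within a heading number have no test. The model was tested on simulated data. Exon lengths, positions and overlaps came from GENCODE M21 (GRCm38) and promoter windows from RefSeq (GRCm38.p6). Named genes were the 7 members, listed genes without overlap of the populations (for marker lists, examples only), defining genes of the pathway and the 10 genes nearest in profile, of which 5 are given. Genes named beyond these, such as *Gm20513*, *Brd2*, *Dexi*, *Flt3* and *Ms4a1*, were chosen after their values were seen. A defining gene of the pathway is not reported here. Summaries used Python 3.11.15, numpy 2.4.6 and pandas 2.3.3, and plots matplotlib 3.10.9. Alternatives were the heading number as a replicate block with and without the trend, no trend, a pseudocount of 1, a mean of at least 0, filled blanks, mean centering and leaving out each library. Values of marker lists without *Lyz2*, *Ctss* or *Egfl7* were added after the data were seen.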

Additional observations from a re-analysis of the deposited data

Results flagged for a closer look

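For 3 of the class II genes, the difference between PDGFRα reporter+ and PDGFRα reporter- cells had opposite signs in the libraries numbered 2 and those numbered 3, and this contrast was not tested. The log2 difference was −1.06 and 1.59 for *H2-Ab1*, 0.34 and −0.47 for *H2-DMb1*, and 0.00689 and −0.0118 for *H2-DMa*. The values of *H2-DMa* are near 0 in both. The highest and the lowest *H2-Ab1* values were both in PDGFRα reporter- cells, in libraries 2 and 3.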

How the results depend on the processing

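None of the class II genes had an adjusted p under 0.05 under any of the alternatives (limma, lowest adjusted p 0.761, for *H2-Eb1*, highest 1). *Cd74* and *H2-Eb1* kept their direction in all 10 alternatives that gave a value, with log2 fold changes from 0.07 to 1.30 and from −0.89 to −0.07. The block, the trend and filled blanks leave the log2 fold change of a gene without blanks unchanged. Since the populations of *Cd74* did not overlap, a pseudocount or a library left out could not turn its sign either. The kept directions are therefore no separate support. With a pseudocount of 1, the log2 fold changes of *H2-Ab1* and *H2-DMb1* reversed, to −0.044 and 0.0224. When single libraries were left out, values ranged from −1.49 to 2.02 for *H2-Ab1*, from −0.16 to 0.16 for *H2-DMa* and from −1.31 to 1.18 for *H2-DMb1*, each turning sign (*H2-Ab1* without PDGFRα reporter+ library 2 or PDGFRα reporter- library 3, *H2-DMa* likewise, *H2-DMb1* without PDGFRα reporter+ library 3 or PDGFRα reporter- library 2). Members higher without overlap then numbered 1 to 2 (2 without PDGFRα reporter+ library 3, PDGFRα reporter- library 2 or PDGFRα reporter- library 3), and members lower 1 to 2 (2 without PDGFRα reporter- library 2), as a population of 1 library overlaps less easily. Over all genes, 25.7% to 30.6% were then higher and 25.8% to 32.5% lower without overlap. Leaving out a library also unbalances the numbers. With only genes of a mean of at least 0, 2 members were tested and 0 were higher without overlap, since *Cd74* was not tested. With the heading number as a replicate block and the variance trend, 29 genes were called over all genes, none of them a class II gene, and 0 were called with the block and no trend, where unadjusted p-values under 0.05 numbered 913 and 941, the latter with *H2-Eb1* among them. The limma adjusted p of *H2-Eb1* was then 0.761. Deviations of same-numbered libraries from their population mean had a correlation of 0.681 across 14415 genes, which is no statement of the design. With blanks set to the lowest value, *H2-Aa* had a log2 fold change of −2.27 (SE 1.95) and *Ciita* of 0.06 (SE 1.58), both with a limma adjusted p of 1. The unknown depth limits any reading of values this low.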

Other observations

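Costimulatory and coinhibitory molecules, which accompany class II on antigen-presenting cells, were mostly low. Of 8 such genes, *Pdcd1lg2*, the gene of the coinhibitory ligand PD-L2, had no signal in any library, and 2 of the 6 genes tested averaged above 0 on the log2 scale. *Cd80*, a ligand of CD28, was one of them, with log2 values of 0.95 and 1.63 in PDGFRα reporter+ and of 1.50 and 2.12 in PDGFRα reporter- libraries. It was lower in PDGFRα reporter+ cells within both numbers, by 0.55 and 0.49 (differences of −0.55 and −0.49), although the populations overlapped (log2 fold change −0.52, SE 0.36, limma adjusted p = 1). *Tnfsf9*, the 4-1BB ligand, was the other (log2 fold change 0.41, SE 0.30), and its populations did not overlap. *Cd40*, at low values, was higher in PDGFRα reporter+ cells within both numbers, by 1.48 and 1.37. Its populations overlapped (log2 fold change 1.42, SE 0.95). Of the 6 genes tested, 4 had a positive log2 fold change, and the median was 0.30. Within both numbers, 2 were higher and 2 were lower, beside 3182 and 3571 of all 14415 genes. *Tnfsf4*, the gene of OX40 ligand, was listed in both PDGFRα reporter+ libraries (−5.19 and −5.12) and in neither PDGFRα reporter- library, so that no fold change was computed.

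*Cd83*, whose product protects surface class II from ubiquitin-dependent removal, had log2 values of −4.05 and −4.52 in PDGFRα reporter+ and of −6.55 and −5.53 in PDGFRα reporter- libraries. Both numbers gave a higher value in PDGFRα reporter+ cells, by 2.50 and 1.02 (log2 fold change 1.76, SE 0.73, limma adjusted p = 1). These values are low, with 10.3% of coding genes of like length lower on average. *Cd83* is 1 of 4 genes tested from a list of class II and CD74 turnover. All 4 had a positive log2 fold change, and 3 were higher within both numbers, beside 3182 of all 14415 genes. An effect on surface class II was not tested. *Mif*, the soluble ligand of CD74, had high values of 6.61 and 7.12 compared with 6.50 and 6.65, whereas *Cd74* had no value above −2.77.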
